A study of Rattus norvegicus with 4 samples.

Results

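The MyD88 and IRAK signalling adaptors are the proteins that carry a signal from the interleukin-1 receptor inside the cell. The genes are Myd88, Irak1, Irak2, Irak3, Irak4, Tollip, Map3k7, Tab1, Tab2 and Peli1. They were taken by name, with every probe set whose platform annotation gives that one symbol. All 10 genes had at least 1 such probe set, 14 in all, out of 14217 genes with a single symbol on the array. The RNA came from cultured aortic smooth muscle cells, which give the artery wall its contraction, of the Sprague-Dawley rat strain. The cells spent 5 days in medium with 10% serum and 3 days without serum. Interleukin-1 beta (IL-1b) was then given to 2 samples at 2.5 ng/mL for 24 hours, and 2 samples received only the vehicle, 0.1% bovine serum albumin, for the same time. All 4 samples shared this cell source and culture, and nothing in the labels tells separate cultures from repeat samples of one culture. The p-values therefore cover the spread among these 4 samples alone, which may be technical.

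When IL-1b binds its receptor, the adaptor MyD88 joins the receptor's cytoplasmic tail and gathers the IRAK kinases into a complex. The IRAKs pass the signal to the ubiquitin ligase TRAF6, and the kinase TAK1, encoded by Map3k7, with its partners TAB1 and TAB2 then switches on the IkB kinases and the MAP kinases. The same complex serves most Toll-like receptors. IRAK3, also called IRAK-M, and Tollip are known as brakes on it, mostly from work in mouse and human cells.

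After 24 hours, Irak3, the inhibitory IRAK, was 7.96-fold higher with IL-1b. Peli1, a ubiquitin ligase that acts on the IRAKs, rose 2.21-fold at 1 of its 2 probe sets. For the core of the pathway no change was resolved. The fitted folds at the brightest probe sets of Myd88, Irak1, Irak2, Map3k7 and Tab2 lay between 0.842 and 1.31, and none of these passed the test. Tollip did not pass at any of its 3 probe sets, which gave folds of 0.934, 1.52 and 2.01. Tab1 had a fold of 0.681 and did not pass, and Irak4 was too dim to be tested.

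The values are linear MAS5 intensities of probe sets, and a level of one probe set cannot be set against that of another, so the genes are not ranked by level. Changes were tested with limma on log2(intensity + 5.49), fitted over all 18625 probe sets bright enough to test, with Benjamini-Hochberg adjustment over the same probe sets and a threshold of 0.05. The log2 fold changes and the folds here are IL-1b minus vehicle, or IL-1b over vehicle, on this scale. The added offset makes the changes of dim genes look smaller than they are. Of the members' probe sets, 13 of 14 passed the filter on dim values, and 9 of 10 genes.

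The MAS5 scaling gave every array a trimmed mean intensity of 249.99. One array, IL-1b replicate 1, differed from the rest: bacterial hybridisation controls added to every sample read 3.50 times their vehicle mean on it, against 0.952 times on IL-1b replicate 2. Its background, taken as the 95th percentile of 27 dim bacterial controls, was 76.7, against 18.8 on IL-1b replicate 2 and 29.4 and 26.9 on the vehicle arrays. It also differed over the whole array. Its log2 values correlated at r = 0.9024 with IL-1b replicate 2 and at 0.8538 and 0.8586 with the vehicle arrays. IL-1b replicate 2 lay closer to the vehicle arrays (0.9091 and 0.9199) than to its own replicate. The vehicle arrays correlated at 0.9478 with each other. Smooth muscle identity was visible, with 7 of 9 markers above background on all 4 arrays. Their summed intensity was 11760 and 8961 with IL-1b, against 34190 and 34870 with vehicle. Fewer cells of a type and less RNA per cell cannot be told apart in such bulk samples. Of 5 endothelial markers with a probe set, 0 were above background on all arrays, and Pecam1, Vwf and Tie1 were above it on none. Their sums were 182 and 79.8 with IL-1b, against 52.7 and 96.1 with vehicle. Of 7 leukocyte markers only Cd14 was above background on all arrays. Cd14 made up most of their sums, which were 1058 and 1077 with IL-1b, against 767 and 665.9 with vehicle. Cd14 alone read 796 and 950 with IL-1b, against 616 and 578 with vehicle. Csf1r, above background on 3 arrays, read 16.7 and 28.8 with IL-1b, against 55.5 and 49.8 with vehicle. Cd68, above background on 1 array, went the other way, with 40.2 and 32.5 against 10.8 and 5.55. The remaining leukocyte markers overlapped between the groups. Of 5 fibroblast markers 3 were above background on all arrays. The sums over all 5 were 1355 and 1913 with IL-1b, against 825.8 and 786.1 with vehicle, and Lum was the largest part of each. Lum, Pdgfra and Dpt read higher with IL-1b, while the groups overlapped at Thy1 and Dcn. The part of these shifts and of the outlying array in the changes below was not tested.

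**Figure D1:**
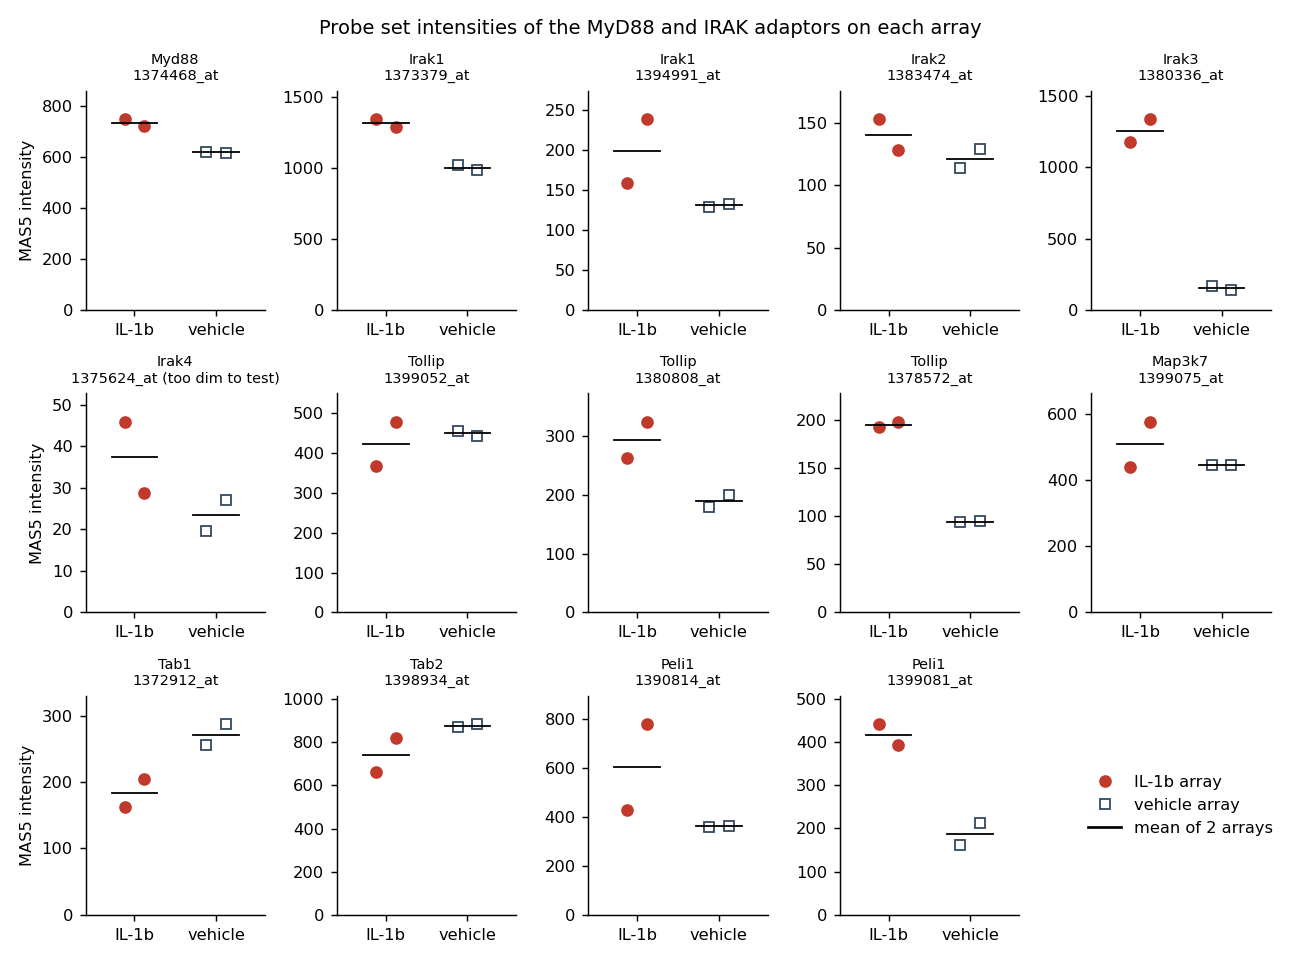
MAS5 intensity (vertical axis, linear, from 0, each panel on its own scale) of the 14 probe sets on the 2 IL-1b arrays (filled circles) and the 2 vehicle arrays (open squares), with the mean of each pair as a bar. Irak3 stands out, with both IL-1b arrays above 1179 and both vehicle arrays below 168, while Myd88, Irak2 and Map3k7 differ little between the groups.

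Myd88 is the adaptor that the receptor's TIR domain recruits first. Its single probe set read 748 and 722 on the IL-1b arrays, against 621 and 617 on the vehicle arrays. Both IL-1b values were above both vehicle values, but the step was small. Its log2 fold change was 0.25 ± 0.14 (SE, n = 2 per group), with a 95% interval of -0.09 to 0.59 and an adjusted p of 0.321 in limma, so the difference was not resolved from the spread. Leaving out any 1 array moved the value only between 0.22 and 0.27.

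Irak4 is the kinase that binds MyD88 and starts the phosphorylation of the other IRAKs. Its probe set read 45.9 and 28.8 with IL-1b, against 19.6 and 27.1 with vehicle. In each group 1 of the 2 arrays read above background. Its mean log2 value of 5.12 was below the brightness filter at 5.37, so Irak4 was not tested, and its level in these cells was not resolved from background. With no filter the log2 fold change was 0.55, with a 95% interval of -1.23 to 2.34 (limma adjusted p = 0.782), and that interval spans a decrease and a large increase.

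Irak1 is the kinase that leaves the receptor complex to engage TRAF6. At its brighter probe set, 1373379_at, it read 1339 and 1286 with IL-1b, against 1016 and 986 with vehicle. The groups did not overlap, and each pair was tight. A log2 fold change of 0.39 ± 0.14 (SE) did not pass with all arrays (limma adjusted p = 0.116, unadjusted p = 0.0246). It passed when IL-1b replicate 1 was left out (0.36, adjusted p = 0.00891) and when IL-1b replicate 2 was left out (0.42, adjusted p = 0.00186), while without either vehicle array it did not. The second probe set, 1394991_at, read 158 and 238 with IL-1b, against 129 and 132 with vehicle, with a log2 fold change of 0.55 and an adjusted p of 0.273. There the higher IL-1b mean came mainly from replicate 2, and the log2 fold change was 0.27 without that array. Without IL-1b replicate 1 it was 0.84.

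Irak2, a relative of Irak1 that also engages TRAF6 and is known to sustain late signalling in mouse cells, read 153 and 128 with IL-1b, against 114 and 129 with vehicle. The groups overlapped. Its log2 fold change was 0.20, with a 95% interval of -0.48 to 0.88 (limma adjusted p = 0.699), which spans lower and higher values.

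Irak3 is the member that changed most. Its protein lacks the kinase activity of IRAK1 and IRAK4 and, in mouse macrophages, holds the complex at the receptor. The probe set read 1179 and 1334 with IL-1b, against 168 and 139 with vehicle. Every IL-1b value was far above every vehicle value, and all 4 were well above background. The means were 1257 ± 110 with IL-1b and 154 ± 20.2 with vehicle (SD, n = 2 each). This is a log2 fold change of 2.99 ± 0.18 (SE), with a 95% interval of 2.57 to 3.42 and a limma adjusted p of 0.000138. By the size of its change Irak3 ranked 167th of 10000 genes. Its call held in all 14 alternative settings, with log2 fold changes of 2.79 to 3.12.

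The start regions of Irak3 and Myd88 are shown because one of these genes rose and the other did not pass. The sequences are from RefSeq, build GRCr8, 250 bases before to 50 bases after the annotated start, and 8 of the 10 members matched a window; Irak2 and Tab1 did not. The Irak3 window is chr7:57598582-57598881 on the minus strand, and the Myd88 window is chr8:127956181-127956480 on the minus strand. Capitals mark matches to the NF-kB consensus motif, to the AP-1 motif TGANTCA or to the C/EBP motif TTGCNNAA, each searched on both strands.
Irak3: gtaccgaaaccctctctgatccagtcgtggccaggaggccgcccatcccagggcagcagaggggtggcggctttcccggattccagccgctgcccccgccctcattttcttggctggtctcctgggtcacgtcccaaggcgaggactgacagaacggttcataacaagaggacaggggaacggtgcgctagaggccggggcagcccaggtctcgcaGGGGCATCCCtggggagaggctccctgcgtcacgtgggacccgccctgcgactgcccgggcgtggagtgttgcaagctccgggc
Myd88: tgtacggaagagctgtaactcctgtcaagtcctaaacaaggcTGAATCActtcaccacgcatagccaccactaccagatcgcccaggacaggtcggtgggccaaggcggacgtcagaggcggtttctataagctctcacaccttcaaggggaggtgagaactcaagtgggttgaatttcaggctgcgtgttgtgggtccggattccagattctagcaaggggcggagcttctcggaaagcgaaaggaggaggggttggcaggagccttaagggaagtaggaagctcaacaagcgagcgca
In the Irak3 window the capitals are 1 match to the NF-kB motif, which begins 34 bases before the start. In the Myd88 window they are 1 match to the AP-1 motif, which reads the same on both strands with its central N and begins 208 bases before the start. The windows of the other 6 members held no match to any of the 3 motifs. Of 33469 rat windows of the same length, 4.18% held the NF-kB motif, 7.33% the AP-1 motif and 10.6% the C/EBP motif. No match overlapped another. A match of letters shows neither binding nor a cause.

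Tollip binds the receptor complex and IRAK1 and is known as a brake and as a sorting adaptor on endosomes. Its 3 probe sets did not move alike. The brightest, 1399052_at, read 367 and 478 with IL-1b, against 455 and 444 with vehicle. Those vehicle values lay between the IL-1b values, and the log2 fold change was -0.10 (limma adjusted p = 0.773). The next, 1380808_at, read 263 and 325 with IL-1b, against 180 and 200 with vehicle, with a log2 fold change of 0.61 ± 0.22 (SE) and an adjusted p of 0.126. The dimmest, 1378572_at, read 192 and 198 with IL-1b, against 94.0 and 94.6 with vehicle. Both pairs were tight and clearly apart. Its log2 fold change of 1.01 ± 0.27 (SE) narrowly missed the threshold (limma adjusted p = 0.0529). It passed with a filter at the 60th percentile (adjusted p = 0.0339) and with a robust prior (0.0487). It also passed when either IL-1b array was left out, where no spread among IL-1b arrays enters the fit. It did not pass in the other 9 settings that give this probe set a value, among them median centring (adjusted p = 0.247), no filter (0.0852) and either vehicle array left out (0.3 without replicate 1, 0.322 without replicate 2). The difference between the probe sets was not tested, and the platform annotation used here does not say which part of the transcript each reads, so no direction is given for Tollip as a gene.

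Map3k7 encodes TAK1, the kinase that activates both the IkB kinases and the MAP kinase kinases. It read 439 and 575 with IL-1b, against 444 and 446 with vehicle. The vehicle arrays lay between the IL-1b arrays. Its log2 fold change was 0.17, with a 95% interval of -0.27 to 0.61 (limma adjusted p = 0.592), and it was -0.02 without IL-1b replicate 2.

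The TAK1 partners were lower in value with IL-1b, though neither passed. Tab1, which binds and activates TAK1, read 163 and 205 with IL-1b, against 256 and 287 with vehicle. Its groups did not overlap. The log2 fold change of -0.56 ± 0.23 (SE) had an adjusted p of 0.171 (limma, unadjusted p = 0.045). Tab2, which ties TAK1 to ubiquitin chains, read 661 and 820 with IL-1b, against 871 and 882 with vehicle. Its log2 fold change was -0.25, with a 95% interval of -0.63 to 0.13 and an adjusted p of 0.372. Both read lower on IL-1b replicate 1, the array with the raised controls, than on IL-1b replicate 2. Without IL-1b replicate 2 the values were -0.72 for Tab1 and -0.40 for Tab2, and without IL-1b replicate 1 they were -0.40 and -0.09.

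Peli1 belongs to the Pellino ubiquitin ligases, which bind and modify the IRAKs. At probe set 1399081_at it read 441 and 393 with IL-1b, against 162 and 213 with vehicle. The groups were well separated. The log2 fold change was 1.14 ± 0.22 (SE), with a 95% interval of 0.63 to 1.65 and a limma adjusted p of 0.0153. This call was lost without vehicle replicate 1 (0.95, adjusted p = 0.117), with median centring (0.94, 0.168) and without the intensity trend of the variance (1.14, 0.0762). At the brighter probe set, 1390814_at, Peli1 read 428 and 778 with IL-1b, against 359 and 364 with vehicle. Here the vehicle pair was tight and the IL-1b pair wide. The log2 fold change of 0.67 ± 0.28 (SE) did not pass (adjusted p = 0.179). It was 1.09 without IL-1b replicate 1 (adjusted p = 2.15e-07) and 0.24 without IL-1b replicate 2 (0.23). Averaged over both probe sets Peli1 passed, at 0.90 (adjusted p = 0.0199).

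**Figure D2:**
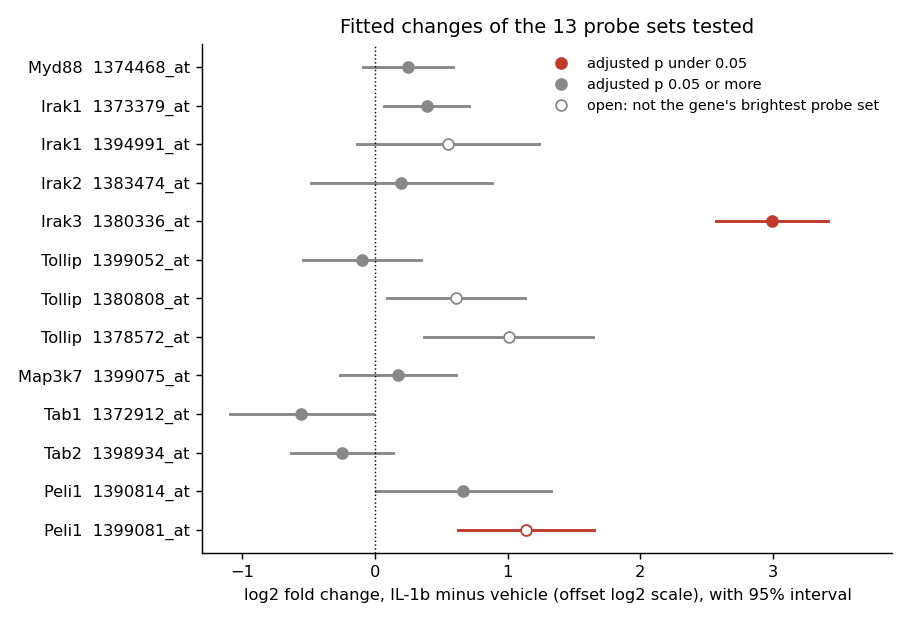
Log2 fold change of IL-1b minus vehicle (horizontal axis, offset log2 scale) for the 13 probe sets tested, with 95% intervals from limma. Filled points are each gene's brightest probe set, open points its others, and red marks an adjusted p under 0.05. Irak3 at 2.99 lies apart from the rest, whose values run from -0.56 for Tab1 to 1.14 for Peli1.

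Counted over genes by the brightest probe set, 1 of 9 tested members was higher (Irak3), against 7.19% of all 10000 genes, and 8 did not pass. No member gene passed in the lower direction in limma, where 8.13% of all genes did. At an unadjusted p under 0.05 there were 3 higher and 1 lower of the 9, against 14% of all genes higher and 15.9% lower. Counted over probe sets, 2 of 13 were higher (15.4%), against 6.32% of all 18625 probe sets higher, 7.11% lower and 13.4% in either direction. With a single gene called, the share of 11.1% says nothing of the members as a group. The median log2 fold change was 0.20 over the 9 genes, against -0.01 over all genes. The 2 IL-1b arrays lay wholly above the 2 vehicle arrays at 8 of 13 probe sets, where 29.2% of all probe sets did so, and wholly below them at 2 of 13, against 29.1%. Of the 13 probe sets, 7 belong to Irak1, Tollip and Peli1, which have more than 1 each and so count more than once.

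Centring each array on its median lowered the median log2 fold change of all probe sets by 0.20, and every fold change shifted alike. The spread within a group did not stay the same. Median intensities were 89.6 and 61.7 with IL-1b, against 66.4 and 61.3 with vehicle, so centring moved the IL-1b arrays by unlike amounts. Mapk14 went from -0.69 to -0.90, yet its limma adjusted p rose from 0.0218 to 0.173. Measured from the median of all probe sets, Irak3 stood at 2.98, Peli1 at 1.13 and 0.65, Irak1 at 0.37 and 0.54, Tollip at -0.11, 0.59 and 0.99, Myd88 at 0.23, Irak2 at 0.18, Map3k7 at 0.16, Tab2 at -0.26 and Tab1 at -0.57. With all arrays, median centring left Irak3 as the only member probe set past the threshold. Among all called probe sets the share higher was 34.4% and the share lower 65.6% with median centring, against 47.1% and 52.9% as deposited.

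**Figure D3:**
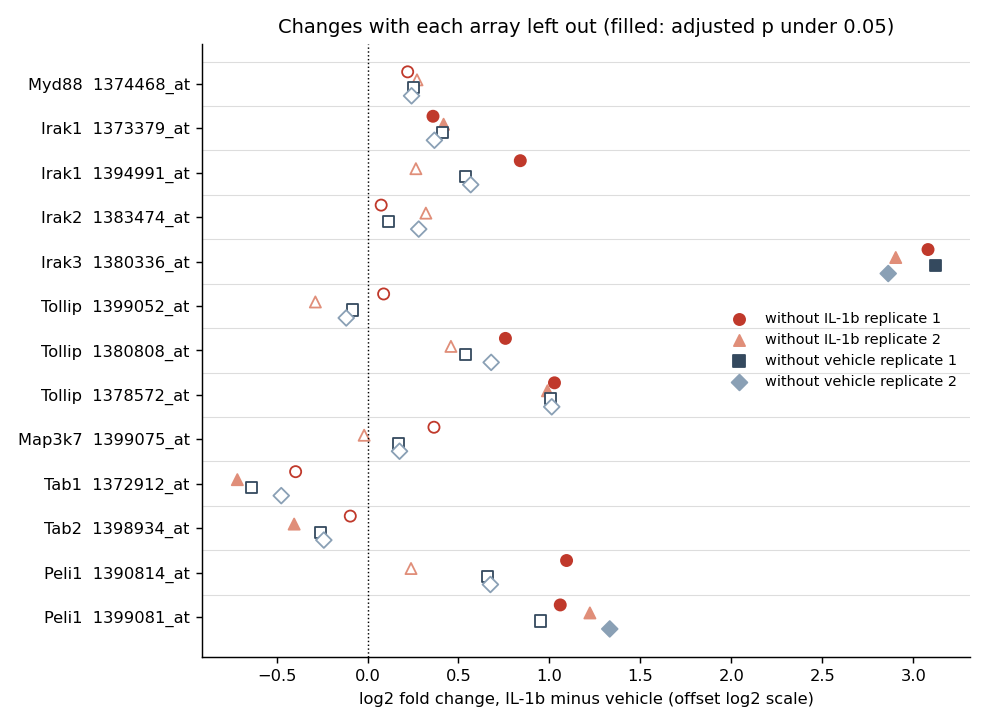
Log2 fold change of IL-1b minus vehicle (horizontal axis, offset log2 scale) for the 13 probe sets tested, fitted again with each of the 4 arrays left out in turn. Filled symbols have an adjusted p under 0.05. Irak3 stays between 2.86 and 3.12, while the brighter Peli1 probe set runs from 0.24 to 1.09 depending on which IL-1b array is left out.

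Which members passed depended on the array left out. Without IL-1b replicate 1, 7 of the 13 probe sets were higher, those of Irak1 (2), Irak3, Tollip (2) and Peli1 (2), where 13.7% of all 18625 were higher and 15.4% lower. Without IL-1b replicate 2, 4 were higher, and Tab1 and Tab2 were lower, where 22.2% of all were higher and 24.3% lower. Without vehicle replicate 1 only Irak3 passed, where 4.1% of all were higher and 3.89% lower. Without vehicle replicate 2, Irak3 and 1 probe set of Peli1 passed, where 3.75% of all were higher and 3.53% lower. When an IL-1b array is left out, its partner is taken to vary like the vehicle pair, which was tighter, and the calls over the whole array also grew, to 5423 without replicate 1 of IL-1b and 8666 without its replicate 2, against 2503 with all arrays.

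Other genes of the pathway, upstream and downstream of the adaptors, were grouped in 5 lists drawn up with earlier results of these data known, so their counts are a description. Of 54 genes with a single-symbol probe set, 43 were bright enough to test. Of these, 18 were higher, 1 was lower and 24 did not pass, with a median log2 fold change of 0.54. Over all 10000 genes tested, 7.19% were higher and 8.13% lower, with a median of -0.01. Those shares also stand beside the counts of each list below. Median centring left 9 higher, and leaving out the intensity trend left 11.

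Among IL-1 and IL-33 receptors and their antagonists, 2 of 3 genes tested rose. Il1r2, Il1rl2, Il1rn and Sigirr were too dim to test. Il1r1, the signalling receptor for IL-1, read 2609 and 2753 with IL-1b, against 177 and 153 with vehicle, and rose by 3.98 (log2). Il1rl1, the receptor for IL-33, read 1361 and 1289 with IL-1b, against 85.0 and 24.7 with vehicle, of which 1 was above background. It rose by 4.67 (log2), and by 5.46 without vehicle replicate 1 and 3.88 without vehicle replicate 2. The co-receptor Il1rap, which both need, read 163 and 124 with IL-1b, against 138 and 172 with vehicle, at its brighter probe set. The log2 fold change there of -0.11 did not pass (adjusted p = 0.843). At its other probe set Il1rap read 59.0 and 93.4 with IL-1b, against 71.9 and 29.4 with vehicle. That log2 fold change of 0.62 did not pass either (limma adjusted p = 0.536).

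Among Toll-like receptors and their accessory proteins, 3 of 8 tested rose, with a median log2 fold change of 0.77. Tlr2, which senses bacterial lipoproteins and signals through MyD88, read 799 and 870 with IL-1b, against 74.6 and 64.7 with vehicle, a log2 fold change of 3.48 (adjusted p = 0.000134). Cd180, a Toll-like receptor homologue known from B cells, read 1358 and 1373 with IL-1b, against 175 and 175 with vehicle (log2 fold change 2.93). Ticam1, the adaptor of the pathway that does not use MyD88, rose by 0.97 (adjusted p = 0.0417), a call lost with median centring, without the intensity trend, without either vehicle array and with the mean of its probe sets.

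Just below the adaptors, Traf6 was measured by 4 probe sets. The brightest read 263 and 246 with IL-1b, against 241 and 304 with vehicle, and the log2 fold changes of all 4 lay between -0.09 and 0.34 with none past the threshold. Tab3, a relative of Tab2, read 98.9 and 239 with IL-1b, against 187 and 213 with vehicle (log2 fold change -0.36, adjusted p = 0.61). It was -0.97 and past the threshold without IL-1b replicate 2 (adjusted p = 0.0048) and 0.25 without IL-1b replicate 1. In this list of TRAF6 ubiquitin and TAK1 partners, 6 of 17 tested rose and 11 did not pass. Tnfaip3 (A20), which takes ubiquitin chains off the pathway's proteins, rose by 2.77, Tifa, which binds TRAF6, by 1.42, Tnip1, an A20 partner, by 1.30, and the ubiquitin ligase Trim8 by 1.08 (all log2). The calls of Tifa, Tnip1 and Trim8 were lost with median centring (adjusted p = 0.0573, 0.0752 and 0.21), those of Tifa and Trim8 also without the intensity trend (0.0696 and 0.0598), and that of Tifa without vehicle replicate 2 (0.13).

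Among the IkB kinase subunits, the IkB family, Tbk1 and Tank, 4 of 7 tested rose, and Tbk1 and Tank did not pass. The catalytic subunit Ikbkb read 604 and 703 with IL-1b, against 252 and 273 with vehicle, a log2 fold change of 1.29 ± 0.17 (SE, adjusted p = 0.00365), which did not pass with median centring (1.09, adjusted p = 0.116). The other catalytic subunit, Chuk, read 609 and 1127 with IL-1b, against 818 and 784 with vehicle (log2 fold change 0.05, adjusted p = 0.927). Its IL-1b arrays lay on opposite sides of the vehicle arrays. Nfkbia and Nfkbib, which encode inhibitors that hold NF-kB in the cytoplasm, rose by 3.63 and 1.73 (log2). Nfkbiz, which encodes a nuclear member of the IkB family known to help switch on a subset of NF-kB targets, rose by 2.71 (log2).

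Among MAP kinases, their activators and Mapkapk2, 3 of 8 tested rose and 1 fell. Map3k8, a kinase upstream of ERK, read 881 and 1216 with IL-1b, against 15.4 and 30.7 with vehicle, of which 1 was above background. Its vehicle values alone lay below the brightness filter, so it was tested only through its IL-1b values. Its rise of 5.24 (log2), which the counts here and over all lists include, therefore rests on a dim vehicle level. Mapkapk2, a kinase that p38 activates, rose by 1.20 and Map2k3, an activator of p38, by 0.90 (both log2). Mapk14, which encodes p38 alpha itself, read 784 and 705 with IL-1b, against 1178 and 1230 with vehicle. It fell by 0.69 on the log2 scale (SE 0.14, adjusted p = 0.0218). The calls of Map2k3 and Mapk14 were each lost with median centring, without the intensity trend and without either vehicle array, and that of Mapkapk2 with the first 2 of these.

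**Figure D4:**
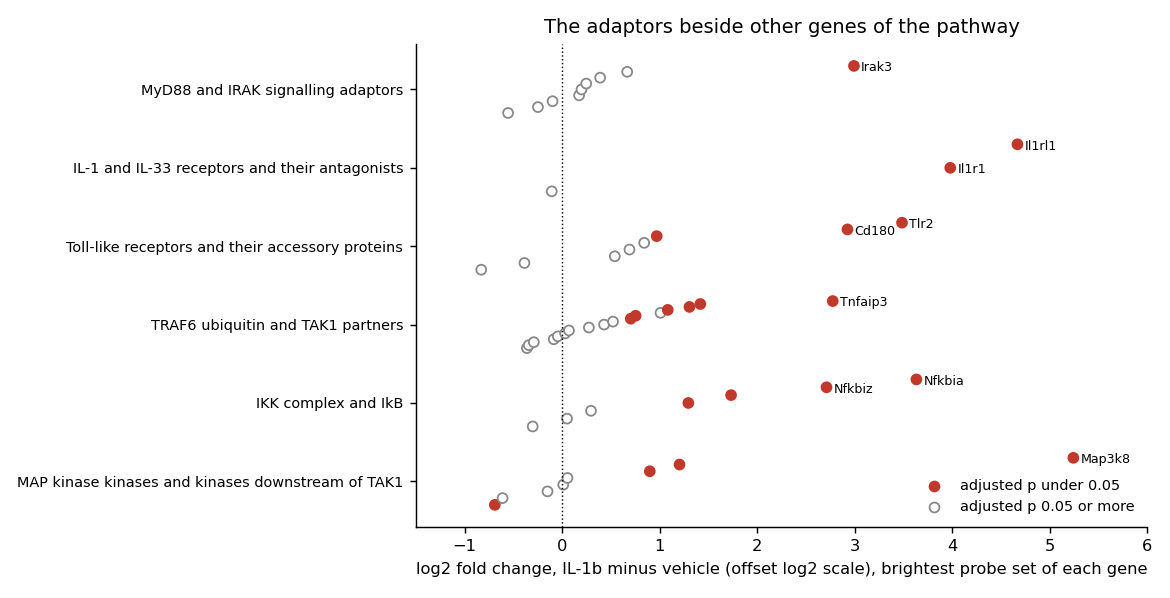
Log2 fold change of IL-1b minus vehicle (horizontal axis, offset log2 scale) at the brightest probe set of each gene, for the 9 adaptors tested (top row) and the 5 lists of other pathway genes. Red points have an adjusted p under 0.05, and those beyond 2 in size are named. The top row holds 1 red point, Irak3, and the row of IkB kinase and IkB genes, which also holds Tbk1 and Tank, 4 of 7.

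By likeness of profile over the 4 arrays, measured as the distance between log2 values centred on each gene's mean, the nearest genes to Irak3 were Phlda1 (0.145), Wnt4 (0.159) and Micall2 (0.159). Nearest to Myd88 were Slc25a20 (0.0152), Atp5pf (0.0157) and Trappc1 (0.0212), and nearest to Irak2 were Ndufs7 (0.0135), Gorasp1 (0.0352) and Bbs1 (0.0371). The distance is in log2 units, and 4 arrays are few for such a measure.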

How the data were processed

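Biotin-labelled RNA of 4 samples, 2 with IL-1b and 2 with vehicle, was read on single-colour Affymetrix rat arrays. The deposited values are linear MAS5 intensities per probe set, per the submitters' processing notes, which name no version or settings. MAS5 sets the arrays to one general level and corrects nothing else between them, and no detection calls were used here. Before taking log2, 5.49 was added, the 10th percentile over the whole table. The 57 control probe sets and those with a mean log2 value below the 40th percentile (5.37) were left out. limma 3.58.1 in R 4.3.3 was fitted to the other 18625 with an intensity trend, with 2 residual and 4.91 prior degrees of freedom.

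Symbols were read from the platform annotation, where 20826 probe sets had 1 symbol, 436 several and 9780 none listed. A gene was represented by its brightest tested probe set. Named were all members, up to 4 called genes of each pathway list with the largest change, Il1r1, Il1rap, Traf6, Ikbkb, Chuk and Tab3, and the 3 genes nearest in profile to Myd88, Irak2 and Irak3. Members and lists were chosen with earlier results of these data known. The fit was tested on simulated data in which all arrays had the same spread at a given brightness. The real arrays do not share this, so that test does not cover the outlying array. The number of arrays limits precision. The 14 alternatives are other offsets, scalings, filters and variance models, the replicate number as a block, each array left out and the mean of a gene's probe sets.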

Additional observations from a re-analysis of the deposited data

How the results depend on the processing

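The count of 2503 called probe sets became 1634 with median centring and 963 without the intensity trend of the variance, and 1357 to 8666 with 1 array left out. The 1 member gene called, Irak3, was called in all 14 alternatives. The number of members called was 1 to 4 with 1 array left out and 2 with the mean of a gene's probe sets, which added Peli1. The pathway genes called, 19 in all, became 9 with median centring and 11 without the trend, and 13 to 31 with 1 array left out. Chuk, at 0.05 with all arrays, turned to -0.39 without IL-1b replicate 2 and was 0.49 without IL-1b replicate 1. The cause of these differences was not tested. With the replicate number as a block, 3276 probe sets, 1 member and 20 pathway genes were called. The labels give no shared origin to equal numbers, and deviations of equal-numbered arrays correlated at r = 0.0912 over 18625 probe sets. With 1 difference per group and an outlying IL-1b array, this value cannot show whether equal-numbered samples shared a culture or day. With 2 arrays a group and no detection calls, small changes such as that of Myd88 and dim genes such as Irak4 could not be resolved.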
